A study of Mus musculus with 6 samples.

Results

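The transcription factor NRF2 (gene Nfe2l2), its inhibitor KEAP1 (Keap1) and 8 of its antioxidant target genes (Hmox1, Nqo1, Gclc, Gclm, Srxn1, Txnrd1, Slc7a11 and Prdx1) were followed in microarray data of BV2 cells, an immortalized mouse microglial line, stimulated with LPS (lipopolysaccharide, a bacterial cell wall component). The 10 genes were chosen by name, and every probe whose accession matched one of them in a table of RefSeq genes was kept. This gave 15 probes, each spotted once, of 56605 probes and 23462 matched genes on the array. All 6 samples came from LPS-treated BV2 cells, 3 without and 3 with overexpression of PGC-1α, a coactivator of mitochondrial and antioxidant genes. According to the methods, PGC-1α was brought into BV2 cells with a lentivirus driven by a ubiquitin promoter, and overexpressing cells were selected with puromycin. The methods also describe a negative control virus, but not whether the control cells of these arrays received it. The labels name neither a clone nor separate cultures, so the p-values below measure only the spread between these 6 samples, which may be technical. No untreated cells were part of this comparison, so the values say nothing about LPS itself.

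NRF2 is held in the cytoplasm by KEAP1, an adaptor that hands it to a ubiquitin ligase for degradation. Oxidants and electrophiles modify KEAP1, after which newly made NRF2 reaches the nucleus, pairs with small MAF proteins and binds the antioxidant response element of its target genes. These targets make glutathione, reduce thioredoxin and peroxiredoxin, break down heme and reduce quinones. In microglia and macrophages NRF2 is known for restraining oxidative stress and inflammatory gene expression. Since much of its control acts on the protein, transcript levels of Nfe2l2 do not measure the activity of the factor.

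The element that NRF2 binds at its target genes was looked for in the promoters. The matches are shown here as a description, and a link between the factor and the genes measured was not tested. The core TGACNNNGC was searched on both strands of windows from 250 bases before to 50 bases after the gene start in RefSeq's annotation of the mouse genome GRCm38.p6. Of the 10 genes, 8 had windows in the table, 10 windows in all since Txnrd1 has 3, and 5 windows of 5 genes held a match, against 12.4% of all 32851 windows. Most of the genes were chosen as targets of NRF2, so the comparison with all windows is no result of these data. Matches outside the windows were not searched for. No window was at hand for Hmox1 and Gclc. Each match is given with 10 bases on either side, on the strand where it reads TGAC, with the core in capitals and its first position counted from the gene start in the direction of the gene. A match is a description of these letters and not a measured binding site.
Nfe2l2 (chr2:75704885-75704913, minus strand, core from position -240): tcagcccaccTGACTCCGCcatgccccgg
Gclm (chr3:122245413-122245441, minus strand, core from position -134): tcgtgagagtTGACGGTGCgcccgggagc
Srxn1 (chr2:152105542-152105570, minus strand, core from position 28): tgtctcactcTGACCTAGCtgcccactgc
Txnrd1 (chr10:82859104-82859132, minus strand, core from position -92): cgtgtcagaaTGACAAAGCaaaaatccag
Prdx1 (chr4:116685456-116685484, minus strand, core from position -133): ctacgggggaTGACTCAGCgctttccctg
The Prdx1 match also contains the letters TGACTCA, which are known as the element of the AP-1 factors. For Nfe2l2 the core lies on the strand of the gene, and for Gclm, Srxn1, Txnrd1 and Prdx1 on the opposite strand. Among the 5 genes with a match, the measured changes given below ran in both directions at the main scaling. Under quantile normalization, the other scaling described below, the genes that rose, Gclm and Prdx1, were at -0.01 and -0.04. Slc7a11, whose probe A_51_P129502 rose under both scalings, had no match in its window.

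Levels are given as relative log2 intensity, the log2 of the background-corrected signal minus the 75th percentile of its array, so that 0 is the level of a spot brighter than 75% of the spots. The 75th percentile itself was 1617 to 1893 intensity units without and 856 to 1268 with PGC-1α overexpression, and no spot was saturated. Under this scaling the median change of all 24558 probes tested was 0.15 log2 units, and under quantile normalization, the main alternative, it was -0.02. For the 1648 brightest probes (relative log2 intensity above 3) the medians were 0.54 and -0.02. A change of a bright probe therefore depended on the scaling. Ppargc1a, the overexpressed gene, gave no firm check of the labels. Neither of its probes passed the filter on dim probes, and their means were -6.76 without and -5.62 with overexpression for one and -6.76 and -6.50 for the other, while the position of these probes relative to the viral sequence was not given. Of 9 microglia and macrophage markers, 8 were well above background on all 6 arrays and Cx3cr1 on none. Of 5 markers each, 3 neuron, 3 astrocyte, 4 oligodendrocyte and 3 fibroblast or endothelium markers were also well above background on all 6, while Syt1, Slc1a3 and Cdh5 were so on none. Summed signals relative to the 75th percentile were higher with PGC-1α for every list: 81.2 to 84.3 without and 118 to 142 with it for microglia, 24.3 to 29.8 and 36.5 to 49.8 for neuron, 0.248 to 0.297 and 0.426 to 0.547 for astrocyte, 1.05 to 1.15 and 1.18 to 1.33 for oligodendrocyte, and 11.4 to 12.1 and 18.6 to 22.2 for fibroblast and endothelium markers. The part of these shifts in the results was not tested. All samples came from the BV2 line, and the sums are given only at the 75th percentile scaling, under which the brightest probes rose. They are not read as numbers of cells of a type, which such bulk samples cannot tell apart from RNA per cell.

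With PGC-1α overexpression, the Nfe2l2 transcript fell 4.19-fold at its coding probe, the peroxide repair enzyme gene Srxn1 fell 2.04-fold, and 1 of the probes of the cystine transporter gene Slc7a11 rose 3.06-fold. These 3 probes passed the threshold (adjusted p under 0.05 with limma) in the reported fit and in all 21 alternatives that tested them. Relative to the median change of all probes, they changed by -2.21, -1.18 and 1.46 log2 units. Gclm and Prdx1 rose at the 75th percentile scaling and did not pass under quantile normalization. Keap1, Hmox1, Gclc, Txnrd1 and Nqo1 did not pass at the probe that stands for each gene, the brightest one tested.

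Counted by gene, 3 of the 10 rose (Slc7a11, Gclm and Prdx1), 2 fell (Nfe2l2 and Srxn1) and 5 did not pass. Over all 17062 genes tested, 36.1% rose and 19.2% fell, so the shares among the 10 were near those of the whole array. The median change of the 10 genes was 0.06, against 0.23 for all genes. Under quantile normalization 1 of the 10 rose (Slc7a11) and 2 fell (Nfe2l2 and Srxn1), against 22.5% and 21.9% of all genes, and the medians were -0.18 and 0.03. Counted by probe, 13 of the 15 were tested. Of these, 3 rose and 3 fell, against 31.4% and 21.3% of all probes. Of the 9 tested probes with values on all 6 arrays, 5 had groups that did not overlap, against 63.0% of all such probes.

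**Figure D1:**
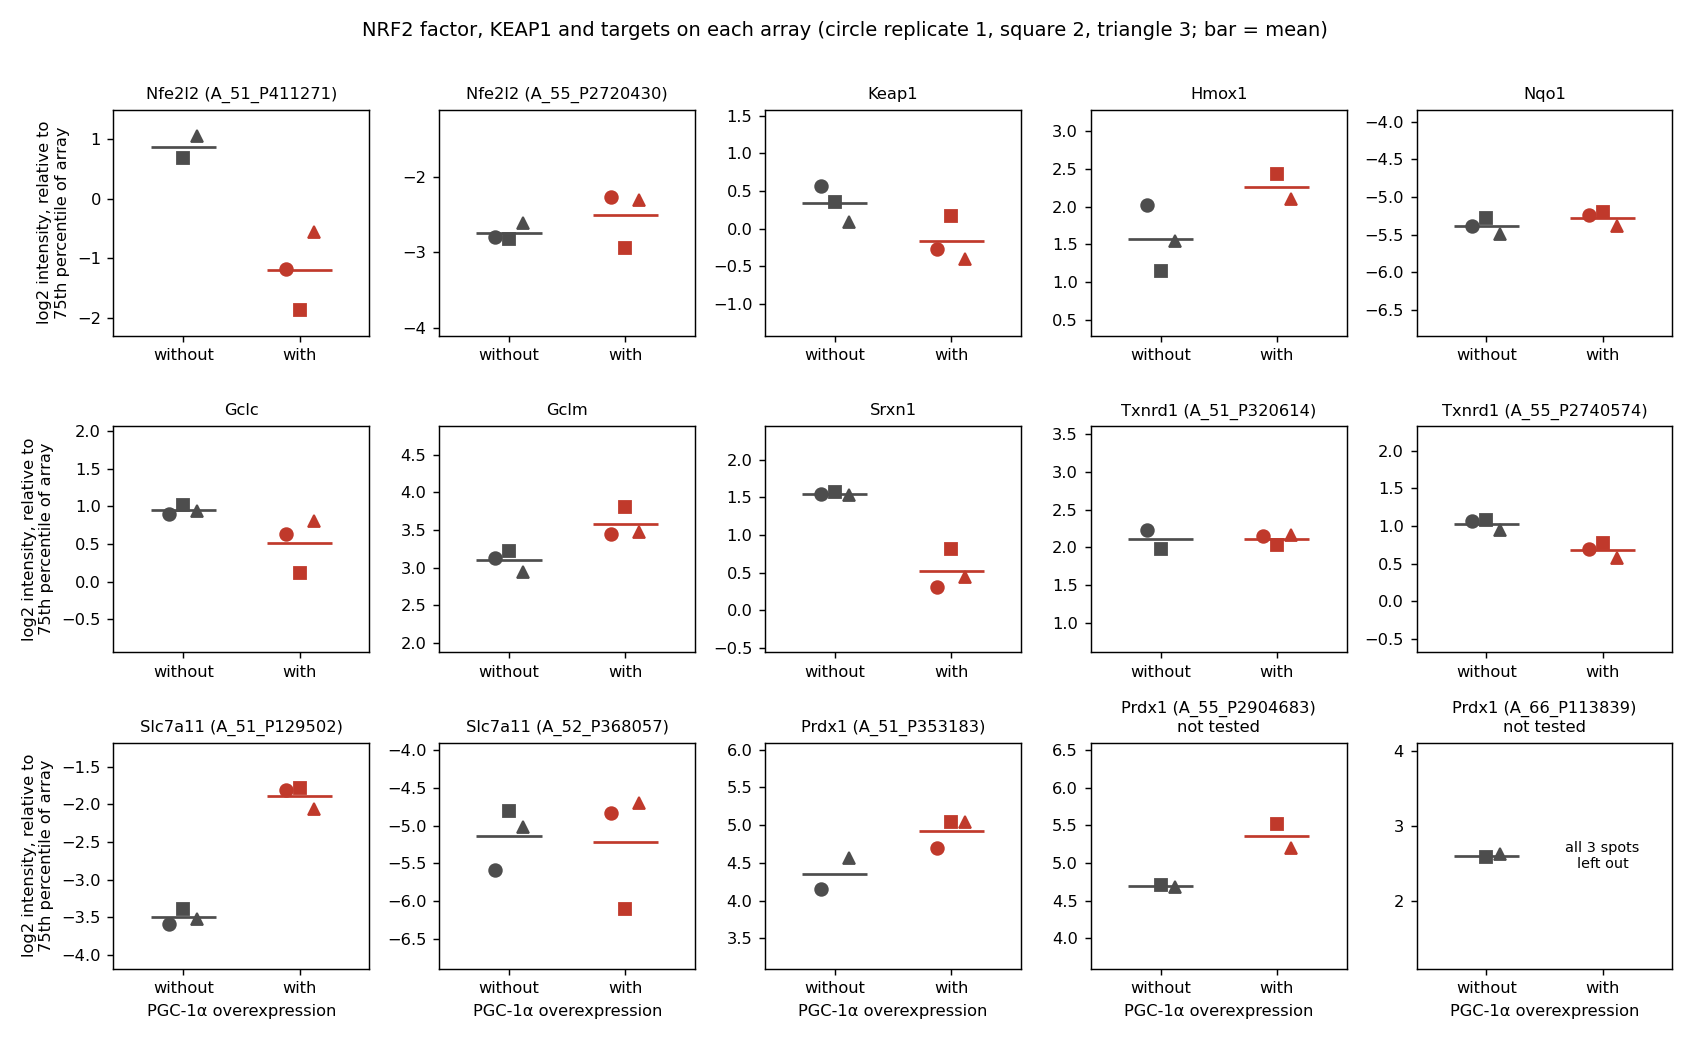
Relative log2 intensity (log2 intensity minus the 75th percentile of the array) of the 15 probes on each of the 6 arrays, without (grey) and with (red) PGC-1α overexpression. Symbols mark the replicate number, bars the group means, and spots marked as outliers are left out. The groups stand furthest apart for the Nfe2l2 probe A_51_P411271, for Srxn1 and for the Slc7a11 probe A_51_P129502.

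Nfe2l2 was measured by 2 probes that gave different results. Probe A_51_P411271 carries the accession of the coding transcript (NM_010902). It read 0.68 and 1.06 in relative log2 intensity on control arrays 2 and 3, since the spot of control array 1 was marked as an outlier, and -1.17, -1.86 and -0.55 with PGC-1α. All 3 overexpression arrays lay below both control arrays. The means were 0.87 ± 0.27 (SD, n = 2) and -1.20 ± 0.65 (SD, n = 3), and the change was -2.07 log2 units (SE 0.35, 95% interval -2.90 to -1.23, adjusted p = 0.0035, limma). After the second Slc7a11 probe this was the widest spread between overexpression arrays among the tested probes, and over the alternatives the change lay between -2.39 and -1.73. The change was -2.20 within slide 1, which held replicates 1 and 2 of both groups. Only control array 2 stood for the controls there, since the spot of control array 1 was left out. Within slide 2, which held replicate 3, the change was -1.61. With the outlier spot kept the change was -2.0.

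The other Nfe2l2 probe, A_55_P2720430, carries the accession of a transcript annotated as noncoding (NR_132727). It read -2.80, -2.83 and -2.61 without and -2.27, -2.95 and -2.31 with PGC-1α. These groups overlapped, and the change of 0.24 (SE 0.20, 95% interval -0.21 to 0.69, adjusted p = 0.33) did not pass. In 2 of 20 alternatives it passed as higher, up to 0.51. Within an array, the coding minus the noncoding probe was 3.51 and 3.67 without and 1.1, 1.09 and 1.75 with PGC-1α, a comparison that needs no scaling between arrays. The difference between groups was -2.28 log2 units (exact permutation test, two-sided, p = 0.1, the smallest p this design allows). When both probes were averaged, the gene's change was -0.30 (adjusted p = 0.64) and no longer passed. On control array 1 that average consists of the noncoding probe alone, since the coding spot was left out.

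Keap1 encodes the protein that marks NRF2 for degradation. Its probe read 0.56, 0.36 and 0.09 without and -0.27, 0.16 and -0.40 with PGC-1α. Overexpression array 2 lay above control array 3, so the groups overlapped by 1 array of each. The change of -0.50 (SE 0.19, 95% interval -0.94 to -0.07, adjusted p = 0.053) did not pass, though it did in 10 of 21 alternatives, with adjusted p from 0.0005 to 0.16. With slide as a block, each slide holding both groups, it passed (-0.50, adjusted p = 0.017). It was -0.51 within slide 1 and -0.49 within slide 2. The Nfe2l2 coding probe minus the Keap1 probe was 0.33 and 0.97 without and -0.91, -2.02 and -0.15 with PGC-1α, a difference of -1.67 (exact permutation p = 0.2).

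Hmox1, which encodes the inducible heme oxygenase, and Nqo1, which encodes a quinone reductase, are the targets most often used to read out NRF2 activity. Hmox1 read 2.02, 1.15 and 1.54 without and 2.43 and 2.1 with PGC-1α, the spot of overexpression array 1 being marked as an outlier. The lower of the overexpression values was just above the highest control value. The change of 0.70 (SE 0.26, 95% interval 0.08 to 1.31, adjusted p = 0.059) did not pass, and it was 0.45 (adjusted p = 0.22) under quantile normalization. With the outlier spot kept, which read 2.36, the change was 0.73 and passed (adjusted p = 0.025), and with slide as a block it was 0.72 and passed (adjusted p = 0.042). Leaving out control array 1, the highest of the controls, gave 0.92 (adjusted p = 0.020), and leaving out control array 2, the lowest, gave 0.48 (adjusted p = 0.14).

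Nqo1 was dim on every array, although well above background on all 6. It read -5.39, -5.28 and -5.49 without and -5.23, -5.20 and -5.39 with PGC-1α, with unscaled signals of 38.6, 41.8 and 42.2 and of 30.7, 23.3 and 30.3. The groups overlapped after scaling, and the change of 0.11 (SE 0.13, 95% interval -0.18 to 0.40, adjusted p = 0.47) did not pass. Under quantile normalization it was -0.10 (adjusted p = 0.43). No alternative took Nqo1 past the threshold. The interval of Nqo1 depended on the scaling, since under quantile normalization it was -0.34 to 0.13. At the main scaling it ended at 0.40, while the interval of Hmox1 reached 1.31. Since the probe was dim and the sign of its change turned with the scaling, these intervals do not bound the change of the Nqo1 transcript.

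Glutathione is made from cysteine, which enters the cell as cystine through the transporter xCT (Slc7a11), and its first step is catalysed by glutamate-cysteine ligase, an enzyme of a catalytic (Gclc) and a modifier (Gclm) subunit. Slc7a11 probe A_51_P129502 read -3.58, -3.38 and -3.52 without and -1.82, -1.78 and -2.06 with PGC-1α. The arrays of each group lay close together and the groups were far apart. The change was 1.61 (SE 0.13, 95% interval 1.31 to 1.92, adjusted p = 0.00013, limma), and it was 1.19 to 1.70 over the alternatives, 1.69 within slide 1 and 1.46 within slide 2. The unscaled signals were already higher with PGC-1α, 329, 249 and 305 against 135, 156 and 165, so that this rise did not depend on the scaling between arrays.

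A further Slc7a11 probe with the same accession (NM_011990), A_52_P368057, read -5.59, -4.80 and -5.02 without and -4.83, -6.10 and -4.70 with PGC-1α. The values overlapped widely, and overexpression array 2, which was the lowest here, was the highest at the other probe. The change was -0.07 (SE 0.37, 95% interval -0.93 to 0.78, adjusted p = 0.88), and the probe was well above background on 3 control and 2 overexpression arrays. Its sign turned in several alternatives, and with another background correction (normexp) it was 0.40 (adjusted p = 0.025). Within an array the first minus the second probe was 2.01, 1.41 and 1.5 without and 3.02, 4.32 and 2.64 with PGC-1α, a difference of 1.68 (exact permutation p = 0.1). The rise of Slc7a11 therefore rests on 1 of its 2 probes, and the average of both rose by 0.77 (adjusted p = 0.016).

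Gclc, the catalytic subunit, read 0.90, 1.02 and 0.94 without and 0.64, 0.11 and 0.81 with PGC-1α. Each overexpression array lay below all 3 control arrays, and array 2 was the lowest. The change of -0.43 (SE 0.19, 95% interval -0.86 to -0.01, adjusted p = 0.081) did not pass, was -0.59 within slide 1 but -0.13 within slide 2, and was -0.23 without overexpression array 2. Gclm, the modifier subunit, read 3.13, 3.23 and 2.94 without and 3.45, 3.81 and 3.47 with PGC-1α. Here each overexpression array lay above all controls, and the change of 0.48 (SE 0.15, 95% interval 0.13 to 0.82, adjusted p = 0.028) passed. Before scaling, however, its signals were 14187, 15229 and 14561 without and 12663, 12004 and 14084 with PGC-1α, and under quantile normalization the change was -0.01 (adjusted p = 0.97). The call of Gclm was also lost without control array 1, control array 3 or overexpression array 2 (adjusted p = 0.061, 0.098 and 0.061, with changes of 0.49, 0.40 and 0.36).

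The distance between the subunit probes was wider on each overexpression array than on any control array. Gclc minus Gclm was -2.23, -2.21 and -2.01 without and -2.81, -3.70 and -2.67 with PGC-1α, a difference of -0.91, and of -0.49 after quantile normalization (exact permutation p = 0.1). Such a difference shows that the probes changed unequally, not which of them changed.

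**Figure D2:**
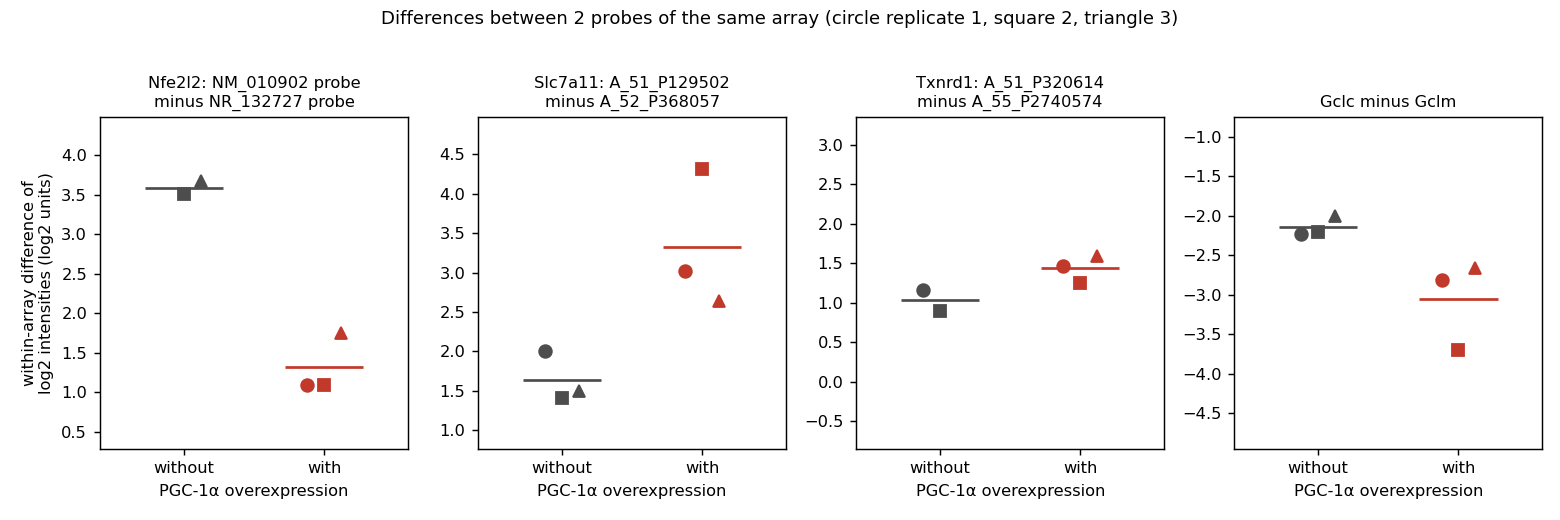
Difference of log2 intensities between the probes of a pair on the same array (log2 units), without (grey) and with (red) PGC-1α overexpression. Symbols mark replicates and bars means. In all 4 pairs shown the groups do not overlap, with differences of -2.28 for Nfe2l2, 1.68 for Slc7a11, 0.40 for Txnrd1 and -0.91 for Gclc minus Gclm. The Nfe2l2 and Txnrd1 pairs have 2 control values. Of all single probes with values on 6 arrays, 63.0% had groups that did not overlap, and other pairs were not examined for comparison.

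The thioredoxin branch is represented by Srxn1, Txnrd1 and Prdx1. Sulfiredoxin (Srxn1) repairs overoxidized peroxiredoxins. Its probe read 1.55, 1.57 and 1.53 without and 0.31, 0.81 and 0.44 with PGC-1α. The control arrays were nearly identical and all 3 overexpression arrays lay clearly below them. The change was -1.03 (SE 0.15, 95% interval -1.38 to -0.68, adjusted p = 0.0014, limma), -1.13 under quantile normalization, and -1.24 to -0.93 over the alternatives. It was -1.0 within slide 1 and -1.09 within slide 2.

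Thioredoxin reductase (Txnrd1) was measured by 2 probes of the same accession (NM_001042523). Probe A_51_P320614 read 2.24 and 1.98 on control arrays 1 and 2, with array 3 left out as an outlier, and 2.15, 2.03 and 2.17 with PGC-1α. These groups overlapped, and the change of 0.01 (95% interval -0.35 to 0.36, adjusted p = 0.97) did not pass in this or any alternative, while its sign turned in 11 of them, with -0.25 (adjusted p = 0.20) under quantile normalization. Probe A_55_P2740574 read 1.07, 1.08 and 0.94 without and 0.69, 0.77 and 0.57 with PGC-1α. Each overexpression array was below all controls, and the change of -0.35 (SE 0.12, 95% interval -0.63 to -0.07, adjusted p = 0.040) passed, also under quantile normalization (-0.43, adjusted p = 0.017). The call was lost on leaving out any of the arrays other than overexpression array 2, with changes of -0.40 to -0.30 and adjusted p from 0.064 to 0.13. The first minus the second probe was 1.17 and 0.90 without and 1.46, 1.26 and 1.6 with PGC-1α, a difference of 0.40 (exact permutation p = 0.2). The groups did not overlap in this difference.

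Peroxiredoxin 1 (Prdx1), an abundant peroxide-reducing enzyme, had 3 probes of accession NM_011034, of which 1 could be tested. Probe A_51_P353183 read 4.15 and 4.56 on control arrays 1 and 3, with array 2 left out as an outlier, and 4.69, 5.04 and 5.04 with PGC-1α. All overexpression arrays were above both controls, and the change of 0.57 (SE 0.19, 95% interval 0.12 to 1.02, adjusted p = 0.042) passed. As for Gclm, the unscaled signals showed no such separation, at 28674 and 44746 without and 29955, 28126 and 41724 with PGC-1α. Under quantile normalization the change was -0.04 (adjusted p = 0.84). The call was lost without control array 1 or 2 or overexpression array 2 or 3 (changes of 0.36, 0.57, 0.51 and 0.51, adjusted p = 0.23, 0.055, 0.092 and 0.094). Where control array 1 or 3 is left out, 1 control value remains, which is assumed to vary like the other group. The same holds for Prdx1 within slide 1, and for Nfe2l2 within slide 1 or without control array 2 or 3. These fits are among the 21 alternatives.

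The other Prdx1 probes were left out because of outlier spots. A_55_P2904683 read 4.72 and 4.68 without and 5.52 and 5.20 with PGC-1α, and A_66_P113839 read 2.59 and 2.63 without and had no usable spot with PGC-1α. With outlier spots kept, an alternative added after the data were seen, the 3 probes changed by 0.51, 0.57 and 0.58 (adjusted p = 0.032, 0.011 and 0.011) at the 75th percentile scaling. No such rise was seen without that scaling at A_55_P2904683, whose unscaled signals were 42733 and 48407 without and 39251 and 46677 with PGC-1α, and whose quantile normalized means were 15.38 and 15.37. Srxn1 minus Prdx1, the repair enzyme against its substrate, was -2.60 and -3.03 without and -4.38, -4.23 and -4.60 with PGC-1α. The groups stood apart by -1.59, and by -1.07 after quantile normalization (exact permutation p = 0.1). For the 6 within-array differences computed, the exact p adjusted over the 6 was 0.15 or 0.20.

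**Figure D3:**
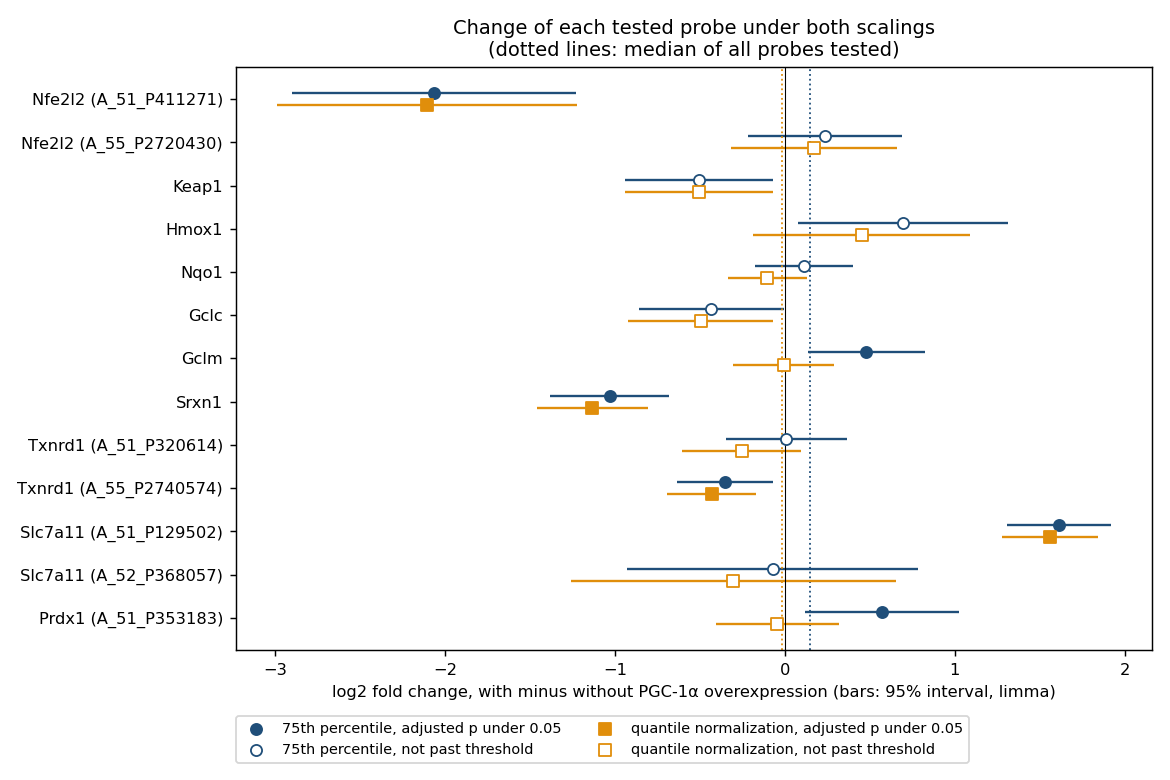
Log2 fold change, with minus without PGC-1α overexpression, of the 13 tested probes with 95% intervals from limma, scaled to the 75th percentile (blue circles) or quantile normalized (orange squares). Filled symbols have an adjusted p under 0.05, and dotted lines mark the median of all probes, 0.15 and -0.02. Gclm and Prdx1 are filled under the first scaling only, while Nfe2l2 (A_51_P411271), Srxn1, Slc7a11 (A_51_P129502) and Txnrd1 (A_55_P2740574) are filled under both.

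A wider list of 57 other genes of the pathway, grouped by role, was read in the same fit. Of 53 tested genes, 25 rose (47.2%) and 5 fell (9.43%), beside 36.1% and 19.2% of all genes, and their median change was 0.36, 0.13 above that of all genes. Under quantile normalization 7 rose and 5 fell, beside 22.5% and 21.9% of all genes, and the median was -0.02. Most of the rises were thus lost with the other scaling, while the 5 falls were called under both. For counts under both scalings the share of all genes is not given. Both counts of rises include Cbr3, which passed the filter on dim probes only through the group where it was high. They also include Bach2 and Gsk3b, which rose at their brightest probes but had probes called in both directions. Gsr, Gstp1, Ephx1 and Cat were not tested.

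Among the factor's partners and competitors, 2 of 7 genes rose and 1 fell under both scalings. At the 75th percentile scaling alone the counts were the same, beside 36.1% and 19.2% of all genes. Nfe2l3, a relative of NRF2, rose by 0.95 (adjusted p = 0.0073), from -1.95 ± 0.16 (SD, n = 3) to -0.99 ± 0.41 (SD, n = 3). Bach1, a repressor that competes with NRF2 for its element, fell by 0.99 (adjusted p = 0.0089), from -1.38 ± 0.06 to -2.36 ± 0.50. Bach2, a relative of Bach1, rose at its brightest probe but had probes called in both directions (0.74 and -1.04). Bach1 and Nfe2l2 fell in the same arrays, though they act in opposite ways on that element. The small MAF genes Maff, Mafg and Mafk changed by -0.04, -0.07 and -0.13 and did not pass.

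Of 6 genes of NRF2 degradation, 4 rose and 1 fell at their brightest probes, beside 36.1% and 19.2% of all genes. Under both scalings 1 each did so, and the rise was Gsk3b, whose probes were called in both directions. Btrc, which encodes a receptor subunit of a ubiquitin ligase that takes up NRF2 after its phosphorylation, fell by 0.66 (adjusted p = 0.0036). Gsk3b, which encodes the kinase that prepares this step, rose by 0.59 (adjusted p = 0.0054) at its brightest probe, but 1 of its 3 tested probes fell, by 1.13 log2 units, so no direction is given for the gene. Cul3 and Rbx1, the ligase that KEAP1 serves, rose by 0.51 and 0.61 (adjusted p = 0.031 and 0.0066), and by 0.17 and 0.13 with no call under quantile normalization. Sqstm1, which encodes p62, a protein that binds KEAP1 and is itself a target, was called higher at its brightest probe, by 0.49 (adjusted p = 0.015), against -0.03 under quantile normalization, and its other tested probe was at -0.24.

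Of 8 tested genes of glutathione synthesis and use, 5 rose and 1 fell, beside 36.1% and 19.2% of all genes. Under both scalings 1 each did so. Gss, the second enzyme of glutathione synthesis, rose by 0.64 (adjusted p = 0.0070), and by 0.40 (adjusted p = 0.039) under quantile normalization. Gsta4, a glutathione transferase that removes lipid aldehydes, fell by 0.75 (adjusted p = 0.0020). Slc3a2, the partner subunit of xCT, rose by 0.75 (adjusted p = 0.0028), and by 0.09 with no call under quantile normalization, unlike the Slc7a11 probe that rose under both.

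Of 11 thioredoxin and peroxiredoxin genes, 7 rose and none fell at the 75th percentile scaling, where 36.1% of all genes rose. Under both scalings 1 rose. The gene that rose under both was Txnip, the inhibitor of thioredoxin. It rose by 1.29 (adjusted p = 0.0003), and by 0.68 (adjusted p = 0.0056) under quantile normalization. Txn1, Prdx2, Prdx4, Prdx5 and Prdx6 rose by 0.46 to 0.76 at the 75th percentile scaling and lay between -0.10 and 0.18 with quantile normalization, as Prdx1 did. Of the 11, Sesn2, which encodes a stress-induced sestrin, had the lowest value, -0.29, and did not pass.

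Of 6 genes of NADPH supply, 3 rose at the 75th percentile scaling, where 36.1% of all genes did. Me1, the malic enzyme, rose under both scalings, by 0.74 (adjusted p = 0.0047) and 0.47 (adjusted p = 0.020), with 1 overexpression spot left out as an outlier. Of 6 genes of heme and iron, 2 rose at the 75th percentile scaling, beside the same 36.1%. These were the ferritin genes Fth1 and Ftl1, which rose by 0.70 and 0.61 and were at 0.05 and -0.0014 under quantile normalization. Slc40a1, the iron exporter ferroportin and a known NRF2 target, fell 6.81-fold, the largest fall on the list. It read -3.02, -2.76 and -2.82 without and -5.53, -6.01 and -5.37 with PGC-1α, a change of -2.77 (SE 0.18, adjusted p = 0.0001, limma), and it passed in all 21 alternatives with changes of -2.93 to -1.20. Its unscaled signals with PGC-1α were dim, at 25.1, 13.3 and 30.7, so the size of this fall is less firm than its direction. Hmox2, Blvra and Blvrb, which handle heme and bilirubin beside Hmox1, were at -0.03, 0.12 and 0.01, and at -0.31, -0.31 and -0.24 under quantile normalization (adjusted p = 0.059, 0.054 and 0.13), and did not pass under either. Hmox2 had another tested probe, which fell by 0.35 at the 75th percentile scaling.

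Of 7 tested genes of detoxification and export, 1 was called higher and 1 lower under both scalings. At the 75th percentile scaling alone, 36.1% of all genes rose and 19.2% fell. The higher one, Cbr3, a carbonyl reductase, differed by 1.25, but it was well above background on 2 of 3 control arrays and so entered the fit only through the overexpression group, where it is high, and its value is a description. Aldh3a1, an aldehyde dehydrogenase, fell by 0.59 (adjusted p = 0.018), and by 0.87 (adjusted p = 0.0051) under quantile normalization. Osgin1 and Abcc4, targets of NRF2 in many cells, changed by 0.12 and -0.31 and did not pass. Of the 2 tested genes of superoxide removal, Sod1 rose by 0.57 (adjusted p = 0.0074) but was at -0.02 under quantile normalization, and Sod2 was at -0.14 and did not pass.

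**Figure D4:**
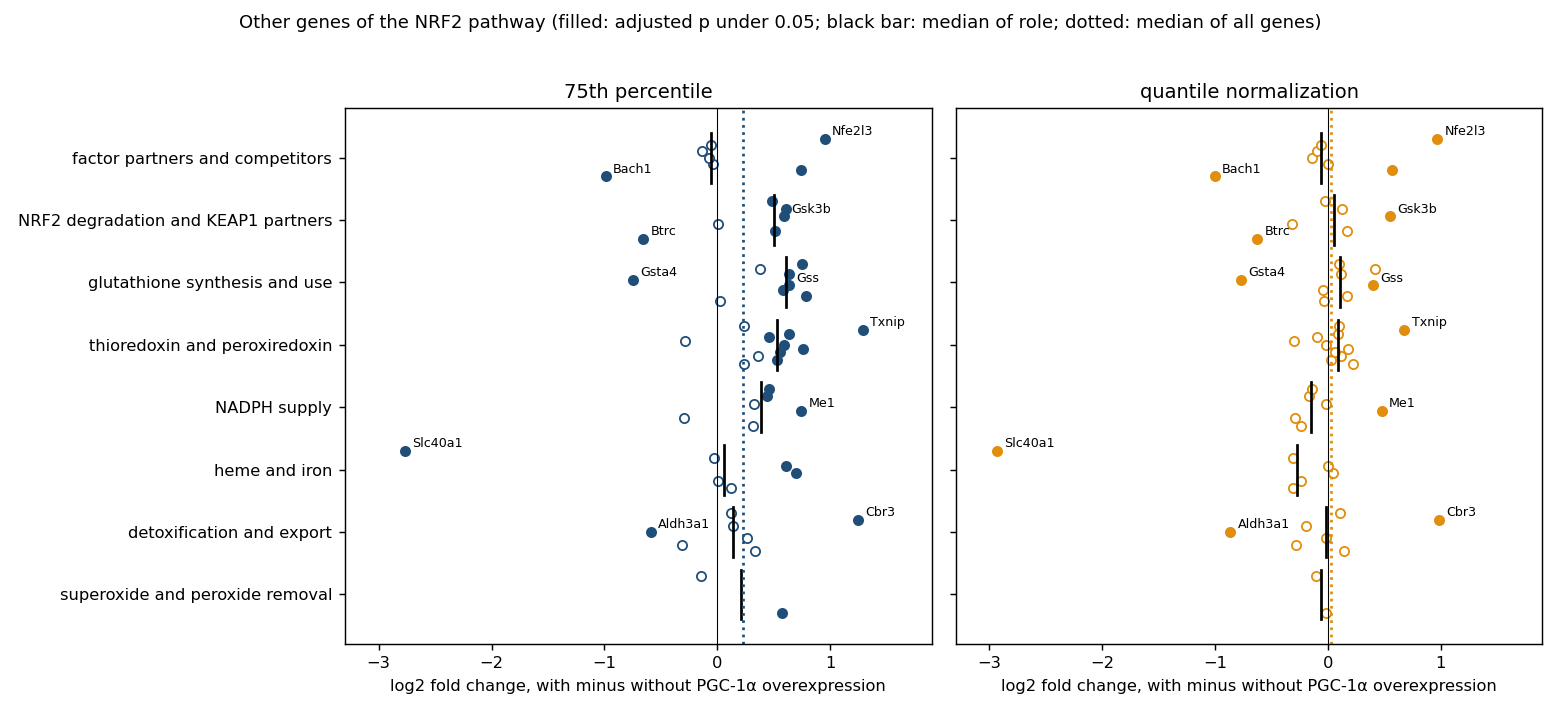
Log2 fold change, with minus without PGC-1α overexpression, of the 53 tested genes of the wider list by role, scaled to the 75th percentile (left) or quantile normalized (right). Filled points have an adjusted p under 0.05, black bars are role medians and dotted lines the medians of all genes, 0.23 and 0.03. Under quantile normalization 7 genes rose and 5 fell at their brightest probes, and the named genes keep the direction of that probe in both panels.

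The 13 probes differed in how far their call depended on the processing. Apart from the 3 that passed throughout, Gclm passed in 12, Prdx1 in 11, Keap1 in 10, Hmox1 in 7 and Gclc in 6 of 21 alternatives, and the Txnrd1 probe A_55_P2740574 in 13 of 20. The noncoding Nfe2l2 probe A_55_P2720430 passed as higher in 2 of 20, with array weights (0.51, adjusted p = 0.0017) and without overexpression array 2 (0.46, adjusted p = 0.024), against 0.24 as reported. The Slc7a11 probe A_52_P368057 passed in 1 of 19, the normexp setting given above. Nqo1 and the Txnrd1 probe A_51_P320614 passed in none.

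**Figure D5:**
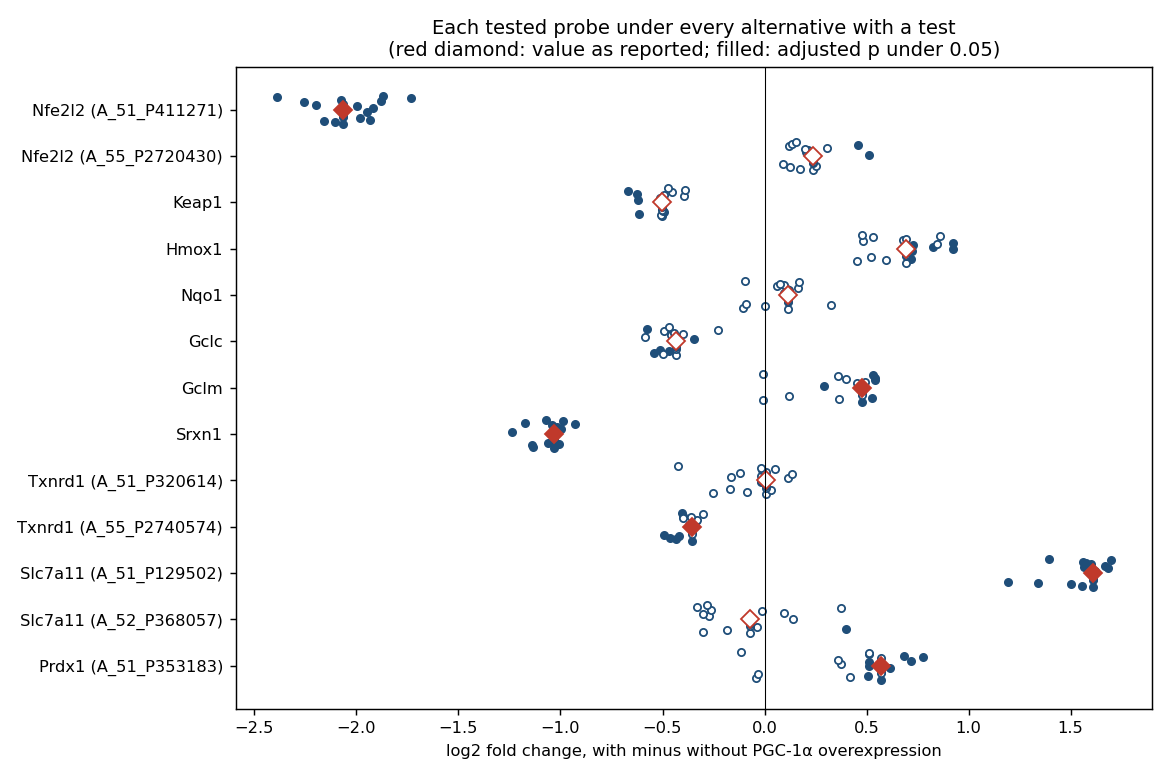
Log2 fold change, with minus without PGC-1α overexpression, of the 13 tested probes under each alternative with a test (blue) and as reported (red diamond). Filled symbols have an adjusted p under 0.05. All points of Nfe2l2 (A_51_P411271), Srxn1 and Slc7a11 (A_51_P129502) are filled and lie on 1 side of 0.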

How the data were processed

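RNA of 6 BV2 samples (3 per group) was hybridized to Agilent mouse arrays, 1 array each, on 2 slides. Groups and replicate numbers came from the labels. The labels name the dye as Cy3 in one field and Cy5 in another, and the files hold the green channel. The deposited intensity values were background-subtracted and spatially detrended by the authors' scanner software, not normalized between arrays. The deposited flags (another kind of value) mark outlier, saturated and well-above-background spots. The authors also deposited log2 values normalized in GeneSpring, used as an alternative.

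Intensities were put on the log2 scale and centred on the 75th percentile of each array's 59305 non-control spots. Outlier spots were left out and repeated spots averaged. Of 56605 probes, 33767 matched a gene by accession. The array design names an older assembly than the gene table, so no probe coordinates are given. The fit took matched probes measured on 2 or more arrays per group and, in 1 group or both, well above background on each of its 3 arrays. The 24558 probes were tested with limma 3.58.1 (lmFit, eBayes, R 4.3.3), two-sided at an adjusted p of 0.05 (Benjamini-Hochberg), and single values with exact permutation tests. Other software was Python 3.11.15 with matplotlib 3.10.9, pandas 2.3.3 and numpy 2.4.6. The fit was tested on simulated data. Precision is limited by the number of arrays.

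The members and lists were chosen with earlier results of these data known. Named were all members, and per role of the wider list the largest rise and fall called under both scalings. Other genes of that list were named after their values were seen. Alternatives were quantile and median normalization, normexp background correction (offset 50), the authors' values, filters, probe choices, blocks, variance models, array weights, single slides, leaving out each array, and, added after the data were seen, outlier spots kept.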

Additional observations from a re-analysis of the deposited data

How the results depend on the processing

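The falls of Nfe2l2 (coding probe) and Srxn1 and the rise of Slc7a11 (A_51_P129502) kept their direction and call in all 21 alternatives that tested them. The 3 member genes that rose became 1 under quantile normalization, the array median, normexp with quantile normalization, no filter on dim probes and the authors' log2 values, and 1 to 3 on leaving out an array (1 without overexpression array 2). The 2 that fell became 4 under the array median, normexp with the 75th percentile, the variance trend and array weights, 1 with the mean of the probes, and 2 to 3 on leaving out an array. Of probes, the 3 that rose became 1 under the same 5 settings as for genes, 5 with normexp and the 75th percentile, and 2 to 3 on leaving out an array, and the 3 that fell became 5 under the same 4 settings as for genes, and 2 to 4. Of the wider list, the 25 rises became 7 with quantile normalization, 5 with normexp and quantile normalization, 7 with the authors' values and 18 to 24 on leaving out an array, and the 5 falls became 8 with array weights and 4 to 5. The share of all probes called, 52.7%, was 34.5% with no filter, 39.4% to 51.8% on leaving out an array, 60.2% with slide as a block and 72.8% with array weights.

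Signs turned for Nqo1 under quantile normalization (-0.10), normexp with quantile normalization (-0.091) and the authors' values (-0.10), for Gclm under quantile normalization (-0.0074) and the authors' values (-0.0098), and for Prdx1 under those 3 settings (-0.044, -0.032 and -0.11). The Txnrd1 probe A_51_P320614 was at -0.25 with quantile normalization, -0.084 with the median, -0.17 with normexp and quantile normalization, -0.019 with slide as a block, with the replicate block and within slide 1, -0.17 with outlier spots kept, -0.43 in the authors' values and -0.12 to 0.14 on leaving out an array. The Slc7a11 probe A_52_P368057 was at 0.40 with normexp and the 75th percentile, 0.14 with array weights, 0.33 within slide 2 and -0.33 to 0.37 on leaving out an array. The cause of these changes was not tested.

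Replicate numbers are shared between the groups, but deviations of same-numbered arrays correlated by -0.20, 0.02 and 0.60, so the numbers were not taken to pair the samples. With the replicate block 4 member genes rose and 3 fell, since Hmox1 (0.92) and Keap1 (-0.50) passed as well. With slide as a block, a batch that holds both groups, the counts were the same 4 and 3, with Hmox1 at 0.72 (adjusted p = 0.042) and Keap1 at -0.50 (adjusted p = 0.017). The share of all probes called was also higher, 57.2% with the replicate block and 60.2% with slide as a block, against 52.7% as reported. With 3 arrays per group, no exact test of a single value can fall below 0.1.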
